A study of Ovis aries with 18 samples.

Results

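TNF, the gene of the cytokine tumour necrosis factor, was measured in sheep whole blood after exposure to either of 2 agonists of the receptor TLR4. Probes of TNF were chosen by the accession given in the array annotation, and 1 of 15008 probes on the array, A_70_P030271 with accession NM_001024860, belonged to this gene, which is 1 of 949 genes that could be named. The probe had 1 spot on each array. The level of TNF was higher with lipopolysaccharide (LPS) and with monophosphoryl lipid A (MPLA) than with phosphate-buffered saline (PBS) in all 6 animals, by 2.68-fold and 2.21-fold on average.

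Blood came from 6 healthy adult female sheep of about 3 years of age and was drawn into lithium heparin tubes. Blood of each animal was incubated outside the body for 90 minutes with PBS (the control), LPS (a component of the outer membrane of Gram-negative bacteria) or MPLA (a derivative of the lipid A part of LPS that has lost a phosphate group). LPS was used at 1 µg and MPLA at 10 µg, amounts that the methods state per mL of blood, so that agonist and amount cannot be told apart where MPLA is set against LPS. Each animal gave 1 array under each treatment, so there were 6 arrays for PBS, 6 for LPS and 6 for MPLA. The animals are named 71Y, 51Y, 20, 170, 80 and 65Y in the labels, and each comparison was made within animals.

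Tumour necrosis factor is made mainly by monocytes and macrophages, as a membrane protein that the protease ADAM17 cuts free. Binding of LPS to TLR4, with its partners MD-2 and CD14, signals through the adaptors MyD88 and TRIF to the transcription factor NF-kB and to MAP kinases, and TNF is among the first genes transcribed. Its mRNA is short lived because tristetraprolin (the product of ZFP36) binds AU-rich elements in it, and the released cytokine acts on the receptors TNFR1 and TNFR2 to drive fever, adhesion of leukocytes and shock. In the RefSeq annotation of the sheep assembly ARS-UI_Ramb_v3.0, TNF lies between LTB and LTA, the genes of the lymphotoxins, and the noncoding gene LOC114109638 overlaps it. LTB, LTA and LOC114109638 had no named probe on the array. Whether the TNF probe lies in the overlapping stretch was not tested, since the probe sequence was not used here.

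The arrays differed in brightness, with a 75th percentile of processed signal between 24.8 and 124.2 and between 23.9% and 45.1% of probes well above background. The arrays lay on 3 slides, each scanned as 1 batch. Animal 170 was split over 2 slides, its MPLA array lying apart from its PBS and LPS arrays, and each of the others lay on a single slide. Defining markers of blood cells were checked where the array named them. The haemoglobin gene HBB, the T cell genes CD3D and CD3E, the monocyte genes CD14 and LYZ and the cytotoxic granule gene GNLY were well above background on all 18 arrays. The T cell gene CD4 and the monocyte gene FCGR1A were well above background on no array, and the neutrophil granule gene LTF was on 5. The T cell gene CD28 was on 1 PBS array only. The brighter of 2 probes of the erythroid gene CA1 was on 2 PBS, 3 LPS and 2 MPLA arrays. The B cell and platelet lists had no named probe. RNA came from unsorted blood, in which fewer cells of a type and less RNA per cell cannot be told apart.

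The TNF probe was well above background on all 18 arrays and was not saturated or marked as an outlier on any. Its spot was between 14.4 and 247 times as bright as the local background, on the PBS array of animal 170 and the LPS array of animal 20. The scanner software gave the processed signal an error of about 10% on each array.

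Before any scaling, the processed signal of TNF differed widely between animals of the same treatment. With PBS it was 3828 in animal 71Y, 854 in 51Y, 3077 in 20, 757 in 170, 2092 in 80 and 1839 in 65Y. With LPS it was 8534 in 71Y, 2677 in 51Y, 12086 in 20, 4339 in 170, 5452 in 80 and 1951 in 65Y. With MPLA it was 7181 in 71Y, 4719 in 51Y, 4512 in 20, 2519 in 170, 4995 in 80 and 3864 in 65Y. The signal was therefore higher with each agonist than with PBS in every animal, but the groups overlapped. The highest PBS signal was 5.05 times the lowest, and the same ratio was 6.19 with LPS and 2.85 with MPLA. In animal 65Y the signal with LPS was 1.06 times that with PBS, on an LPS array whose 75th percentile was 0.451 times that of the PBS array.

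The level was then expressed as a ratio to the 75th percentile of the same array. With PBS it was 30.8 in 71Y, 30.7 in 51Y, 31.0 in 20, 30.5 in 170, 38.4 in 80 and 29.0 in 65Y. Animal 80 lay above the other 5, which lay close together. With LPS the level was 93.5 in 71Y, 82.4 in 51Y, 108.9 in 20, 94.3 in 170, 68.6 in 80 and 68.2 in 65Y. With MPLA it was 72.3 in 71Y, 73.2 in 51Y, 100.2 in 20, 59.9 in 170, 65.5 in 80 and 55.0 in 65Y. All LPS levels and all MPLA levels lay above all PBS levels, while LPS and MPLA levels overlapped. Animal 20 had the highest level with both agonists and 65Y the lowest.

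**Figure D1:**
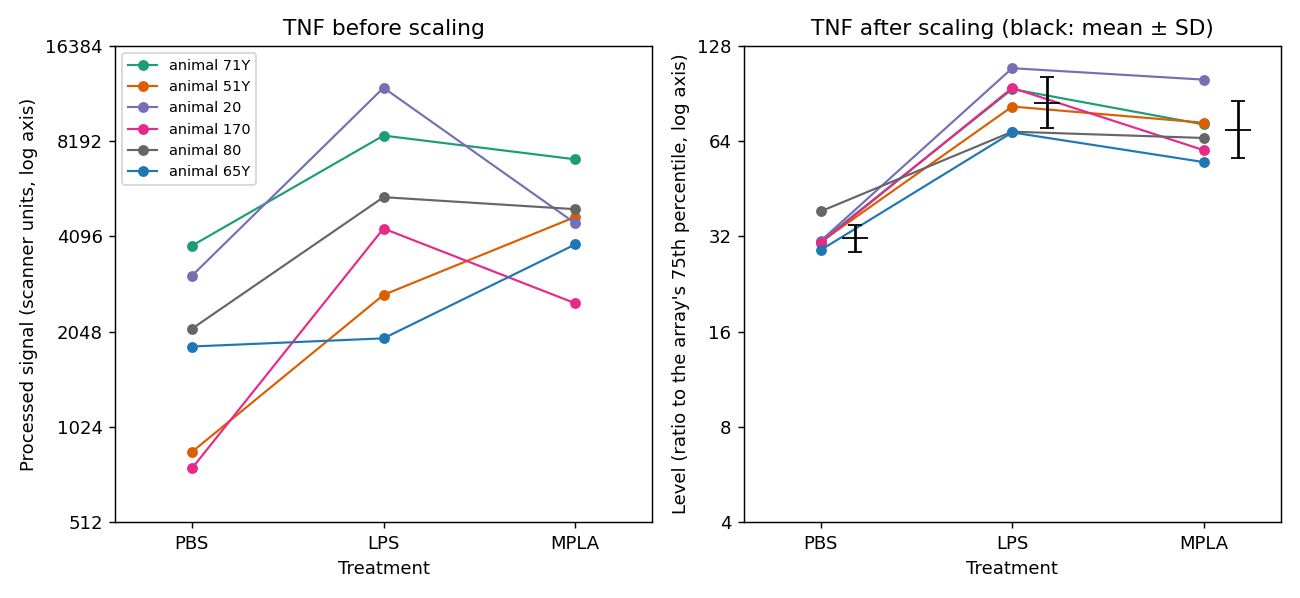
TNF in the blood of 6 sheep with PBS, LPS or MPLA, as processed signal in scanner units (left) and as the ratio to the 75th percentile of the same array (right), both on log axes. Lines join the arrays of an animal, and black marks give the mean ± SD of the log2 level (n = 6). The PBS signals span 757 to 3828, but the PBS levels span only 29.0 to 38.4, below every level with LPS or MPLA.

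On the log2 scale, the mean level relative to the 75th percentile was 4.98 ± 0.142 with PBS, 6.40 ± 0.271 with LPS and 6.12 ± 0.301 with MPLA (SD, n = 6 each). The order of the mean levels was therefore PBS, MPLA and LPS, and the 2 agonists, as neighbours in that order, overlapped. The spread of TNF over the PBS arrays was small among probes of the array. Of the 4122 probes tested, 0.558% had an SD over the PBS arrays at or below that of TNF, and the median SD was 0.561. Among 373 probes whose mean level lay within 1 log2 unit of TNF, 1.07% did. The SD expected from the scanner error of the spots alone was 0.144. With LPS, 13.3% of tested probes had an SD at or below that of TNF, and with MPLA 10.9% did.

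The narrow PBS spread depended on how arrays were scaled, and it was narrower still without animal 80. The SD of TNF over the PBS arrays was 0.953 without scaling, 0.594 after normexp background correction, 0.498 with the array median as the scale and 0.281 after quantile normalization. It was 0.146 in the authors' table. Without animal 80, it was 0.0391 over the other 5 animals. Under normexp, 79.1% of tested probes had an SD at or below that of TNF.

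Most of the variation of TNF over the 18 arrays lay between treatments. Treatment held 88.1% of the sum of squares of the log2 level, animal 6% and the remainder 5.93%. For the median tested probe these shares were 5.36% for treatment, 60.1% for animal and 31.9% for the remainder. The share held by treatment was smaller than that of TNF in 99.8% of the tested probes. These shares describe the arrays, carry no test and were not computed under other scalings. Without scaling, the SD of the log2 signal within a treatment was 0.953 with PBS, 0.991 with LPS and 0.495 with MPLA. On the 75th percentile scale these SDs were 0.142, 0.271 and 0.301.

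The first comparison asked how LPS changed TNF relative to PBS in blood of the same animal. The log2 level rose by 1.60 in 71Y, 1.42 in 51Y, 1.81 in 20, 1.63 in 170, 0.84 in 80 and 1.23 in 65Y. The rise was smallest in animal 80, whose PBS level was the highest, at 1.79-fold, and largest in animal 20, at 3.51-fold. The mean change was 1.42 ± 0.348 (SD, n = 6, log2), with a 95% interval of 1.04 to 1.80, or 2.68-fold with an interval of 2.06 to 3.48. The change passed the test across all probes (limma, adjusted p = 0.00208) and was upward in 6 of 6 animals. The exact two-sided sign-flip test over animals gave p = 0.031, the smallest that 6 animals allow, and the value adjusted over the 3 comparisons of TNF was also 0.031. The median change over all tested probes was -0.01.

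Few other probes moved in this way. With LPS, limma called 33 of 4122 probes higher (0.801%) and 4 lower (0.0970%), and in 28 probes (0.679%) all LPS arrays lay above all PBS arrays, TNF among them. Among the 33 probes called higher, whose log2 rises ran from 0.81 to 5.78 with a median of 2.59, TNF ranked 29 by size of rise. Its SD over animals was the second smallest of those 33, but after normexp, where only 2 probes were called, 26 of the 33 had a smaller SD than TNF, and without scaling 11 did. TNF ranked 22 of all tested probes by p.

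The second comparison asked the same of MPLA. The log2 level rose by 1.23 in 71Y, 1.25 in 51Y, 1.69 in 20, 0.97 in 170, 0.77 in 80 and 0.92 in 65Y. Animal 20 again had the largest rise, at 3.23-fold, and animal 80 the smallest, at 1.71-fold. The mean change was 1.14 ± 0.328 (SD, n = 6, log2), with a 95% interval of 0.77 to 1.51, or 2.21-fold with an interval of 1.70 to 2.86. The change passed the test (limma, adjusted p = 0.00694) and was upward in 6 of 6 animals, with an exact sign-flip p of 0.031. The median change over all tested probes was -0.09. Since the PBS arrays serve both comparisons, the 2 rises are given side by side and are not independent.

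With MPLA, limma called 31 probes higher (0.752%) and 10 lower (0.243%), and in 25 probes (0.607%), TNF included, all MPLA arrays lay above all PBS arrays. TNF ranked 30 of the 31 by size of rise, among log2 rises of 1.06 to 5.74 with a median of 2.20. Its SD over animals was the third smallest of them, while 11 of the 31 had a smaller one after normexp. Without animal 20, limma called 132 probes higher (3.20%) and 152 lower (3.69%), and TNF stayed called.

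The third comparison set MPLA against LPS at their different amounts. TNF was lower with MPLA by 0.37 in 71Y, 0.17 in 51Y, 0.12 in 20, 0.65 in 170, 0.07 in 80 and 0.31 in 65Y on the log2 scale. The direction was shared by 6 of 6 animals, and the sizes were small beside the rises over PBS. The mean difference was -0.28 ± 0.216 (SD, n = 6, log2), or 0.822-fold, with a 95% interval from 0.637-fold to 1.06-fold. It did not pass the test across all probes (limma, unadjusted p = 0.12, adjusted p = 0.841), while the exact two-sided sign-flip test over animals gave p = 0.031, the smallest it can give. The methods' t-test gave an unadjusted p of 0.0239 over the 6 pairs (not an exact test), and the difference was below its limit of 1.5-fold. The median tested probe was itself 0.08 lower with MPLA (a difference of -0.08), which leaves TNF at -0.20 relative to it. The shared direction was not kept under other scalings, with MPLA above LPS in 3 of 6 animals after quantile normalization, 2 with the array median, 2 without scaling and 1 in the authors' table, and the mean difference turned to 0.27 after normexp. In this comparison limma called 0 probes higher (0%) and 2 lower (0.0485%), with 190 probes at an unadjusted p under 0.05, and the methods' t-test called 12 higher and 40 lower at its own threshold. The direction of the limma calls was not stable, with 2 higher and 0 lower with the array median, 3 higher and 0 lower without scaling, and 9 higher and 9 lower without animal 20.

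**Figure D2:**
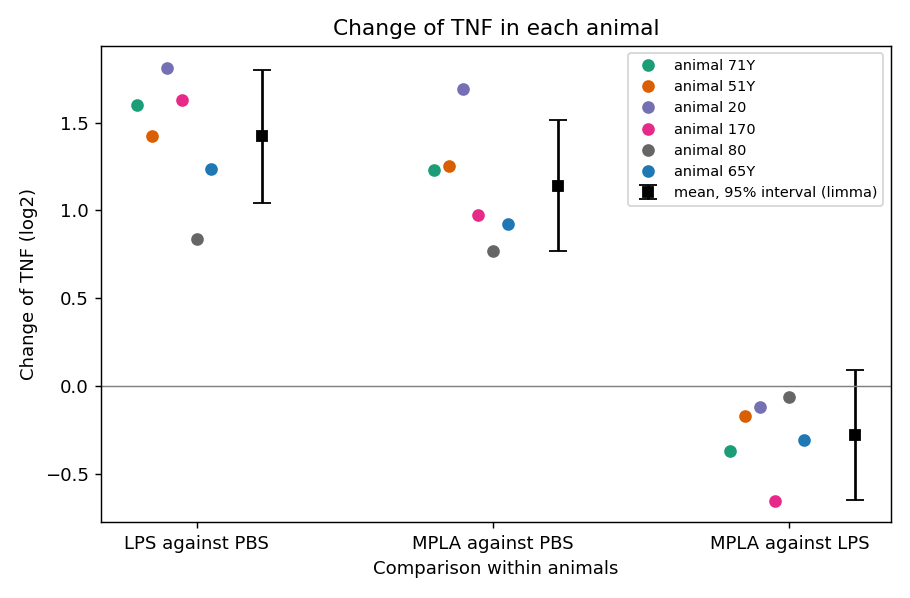
Change of TNF in each of 6 animals, as the difference in log2 level between each agonist and PBS and between MPLA and LPS. Points are animals, and squares with bars are the limma mean and its 95% interval. Every animal lies above 0 in the comparisons with PBS and below 0 for MPLA against LPS, where the interval of -0.65 to 0.09 includes 0 and the direction changed with the scaling.

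The rises with LPS and MPLA were also read within slides, since slide and scan batch were the same thing. With LPS the mean log2 rise was 1.61 over the 2 animals of slide 1, 1.04 over the 2 of slide 2 and 1.62 over the 2 of slide 3. With MPLA it was 1.23 in the 1 animal whose arrays shared slide 1, 0.85 over the 2 of slide 2 and 1.47 over the 2 of slide 3. TNF was thus higher with both agonists on each slide, and lowest in its rise on the slide of animals 80 and 65Y. Slide and animal cannot be told apart here.

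The rise of TNF over PBS was upward on average under each of the 6 scalings run. The mean with LPS lay between 1.02 (normexp) and 1.48 (authors' table) on the log2 scale, and that with MPLA between 1.14 (75th percentile) and 1.38 (array median). With normexp the LPS change ran from -1.09 to 2.11 over animals, was upward in 5 of 6 and was not called (limma, adjusted p = 0.842). Without scaling neither rise was called, with adjusted p = 0.052 for LPS and 0.0992 for MPLA.

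**Figure D3:**
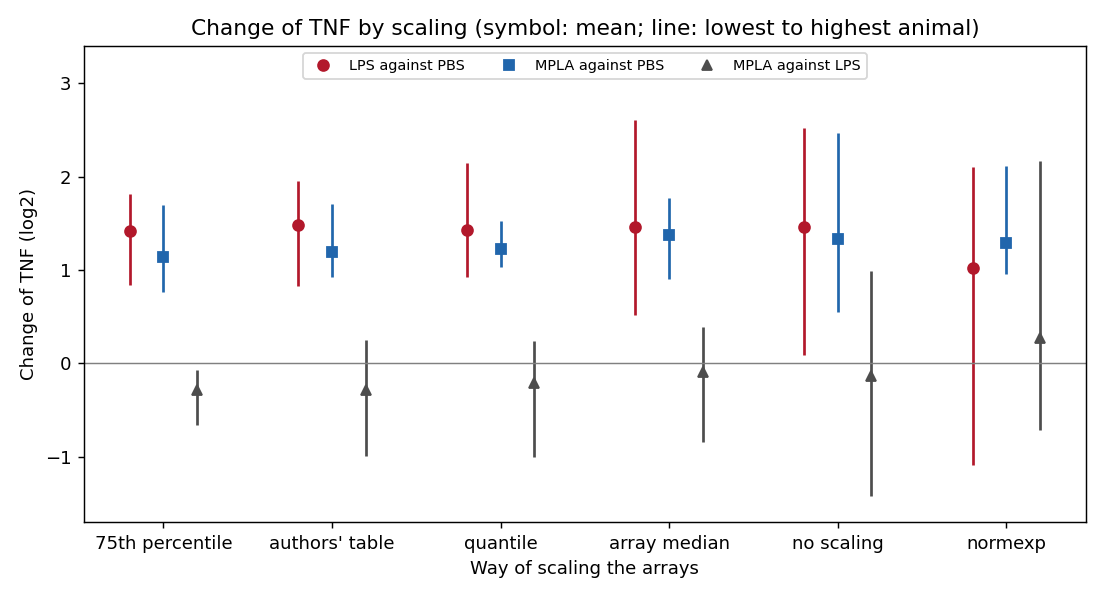
Mean change of TNF on the log2 scale under 6 ways of scaling the arrays, for each agonist against PBS and for MPLA against LPS. Symbols are means over 6 animals and lines run from the lowest to the highest animal. Both comparisons with PBS stay above 0 on average, at 1.02 to 1.48, while MPLA against LPS runs from -0.28 to 0.27.

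Genes of the TNF pathway were then read from the array, by lists of ligands, receptors, signalling genes and targets. Of 18 ligands of the TNF superfamily 2 were named on the array, TNF and CD40LG (the T cell ligand of CD40), which was well above background on 1 PBS array and was not tested. Of 25 receptors of the superfamily 2 were named. The probe of TNFRSF1A, which encodes the main TNF receptor TNFR1, was well above background on 0 of 18 arrays. FAS, a death receptor, was tested and changed by -0.06 ± 0.709 with LPS and -0.40 ± 0.440 with MPLA (log2, SD, n = 6), and neither change was called. None of the 23 listed genes that signal from TNF receptors had a named probe, so the response of blood to the released cytokine could not be read from them.

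Upstream of TNF, 5 of 26 genes from TLR4 to TNF transcription were named and 2 were tested. CD14, the LPS co-receptor of monocytes, differed by -0.32 ± 0.222 with LPS and -0.48 ± 0.354 with MPLA (log2, SD, n = 6; limma, adjusted p = 1 and 0.648). IRAK4, the kinase that MyD88 recruits, differed by 0.05 with each agonist. The TLR4 probe itself was well above background on 1 of 6 arrays of each treatment, and those of MYD88 and FOS on none, so the receptor and its adaptor gave no usable level.

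Of 12 genes of TNF mRNA decay and protein release 3 were named. ZFP36, whose product marks TNF mRNA for decay, differed by -0.07 ± 0.209 with LPS and -0.09 ± 0.310 with MPLA, and TIA1, which represses its translation, by -0.11 ± 0.407 and -0.34 ± 0.279 (log2, SD, n = 6). TIMP3, an inhibitor of ADAM17, was well above background on 0 of 18 arrays. None of these changes was called. Over the 5 tested genes of the receptor, TLR4 and decay lists and the 5 other tested blood cell markers, limma called 0 of 10 in each comparison, with 1 of 10 (CD14 with MPLA) at an unadjusted p under 0.05, and the methods' t-test called 0. Beside the shares over all tested probes (0.801% and 0.752% called higher, and 6.94% at an unadjusted p under 0.05 with MPLA), these counts are near the background and say nothing particular of the 10 genes.

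Levels of the blood cell markers are given beside those of TNF. The summed level of the 2 tested monocyte markers of 8 listed, CD14 and LYZ, ran from 4.74 to 5.75 with PBS, 4.67 to 5.54 with LPS and 4.44 to 5.85 with MPLA on the log2 scale. That of the 2 tested T cell markers of 8, CD3D and CD3E, ran from 7.78 to 8.88, 7.80 to 8.89 and 7.92 to 9.02. The 1 tested erythroid marker of 7, HBB, ran from 10.2 to 12.5, 10.1 to 12.4 and 9.73 to 11.3, and the 1 tested NK cell marker of 6, GNLY, from 6.17 to 7.60, 6.97 to 7.56 and 6.68 to 7.83. Each of these ranges overlapped between all treatments. Within animals, CD14 was lower than with PBS in 5 of 6 animals with each agonist (limma, unadjusted p = 0.0574 with LPS and 0.0202 with MPLA), and LYZ was lower in 5 of 6 with LPS and 4 of 6 with MPLA (unadjusted p = 0.455 and 0.397). None of these differences was called after adjustment, and their part in the TNF result was not tested.

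Targets of NF-kB other than TNF gave the fullest list. Of 44 genes listed as induced through NF-kB, 20 had a named probe and 12 passed the detection filter. With LPS, 11 of the 12 were called higher and 0 lower, against 0.801% of all tested probes called higher, and their median log2 change was 2.60 against -0.01 over all probes. With MPLA, 9 of the 12 were called higher and 0 lower, against 0.752%, with a median of 2.27 against -0.09. These counts are a description and support nothing further. The list was chosen with earlier results of these data known, which bears on all 12 genes. IL1A, IL6, CSF2 and CXCL16 also passed the detection filter only through stimulated arrays. Among the 8 genes well above background on all PBS arrays, 7 were called higher with LPS and 6 with MPLA, with median log2 changes of 2.56 and 1.97. The calls depended on the background correction, since after normexp limma called 0 of the 12 with LPS and 8 with MPLA, with a mean above 0 for all 12 under each agonist, while only 0.0485% of all probes were called higher with LPS. Under the other scalings it called 10 to 12 with LPS and 10 or 11 with MPLA.

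The 5 tested cytokines of the list other than chemokines were called higher with both agonists. IL6, the cytokine of the acute phase response, was at least 5.45-fold higher with LPS and at least 3.17-fold higher with MPLA, and IL1A, a pyrogenic cytokine, at least 6.42-fold and 7.89-fold higher. These are bounds, as no PBS array showed either probe well above background. IL1B, its secreted relative, rose by 2.53 ± 0.990 and 2.62 ± 1.17 on the log2 scale. IL10, which restrains TNF production, rose by 3.08 ± 0.605 with LPS and 3.60 ± 0.830 with MPLA. CSF2, the gene of the growth factor GM-CSF, was at least 2.35-fold and 3.73-fold higher, and was well above background on 0 PBS, 4 LPS and 6 MPLA arrays.

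Chemokines, feedback genes and enzymes varied more in their calls. CXCL1, which attracts neutrophils, rose by 2.59 ± 0.644 with LPS and 1.77 ± 0.271 with MPLA (log2). CXCL8, another neutrophil attractant, differed by 1.12 ± 0.874 and 0.55 ± 0.891 and was not called with either agonist (limma, adjusted p = 0.267 and 0.664). NFKBIZ, an inducible regulator of NF-kB targets, rose by 2.61 ± 0.496 and 1.79 ± 0.618, and CLEC4E, a pattern recognition receptor, by 2.36 ± 0.380 and 2.16 ± 0.482. SOD2, a mitochondrial antioxidant enzyme, rose by 2.35 ± 0.508 and 2.16 ± 0.713. PTGS2, the inducible cyclooxygenase, was called higher with LPS, at 2.63, and was not called with MPLA, at 1.76 (limma, adjusted p = 0.0516). The chemokine CXCL16 was called higher with LPS and not with MPLA (adjusted p = 0.0394 and 0.0895). Its probe was well above background on only 1 of 6 PBS arrays, so its fitted changes of 2.18 and 2.38 rest on PBS levels that were mostly not measured above background. Differences between the agonists were not called for any of the 12 genes by limma, with 6 at an unadjusted p under 0.05 and 4 called by the methods' t-test at its own threshold. Over all tested probes these shares were 4.61% and 1.26%.

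**Figure D4:**
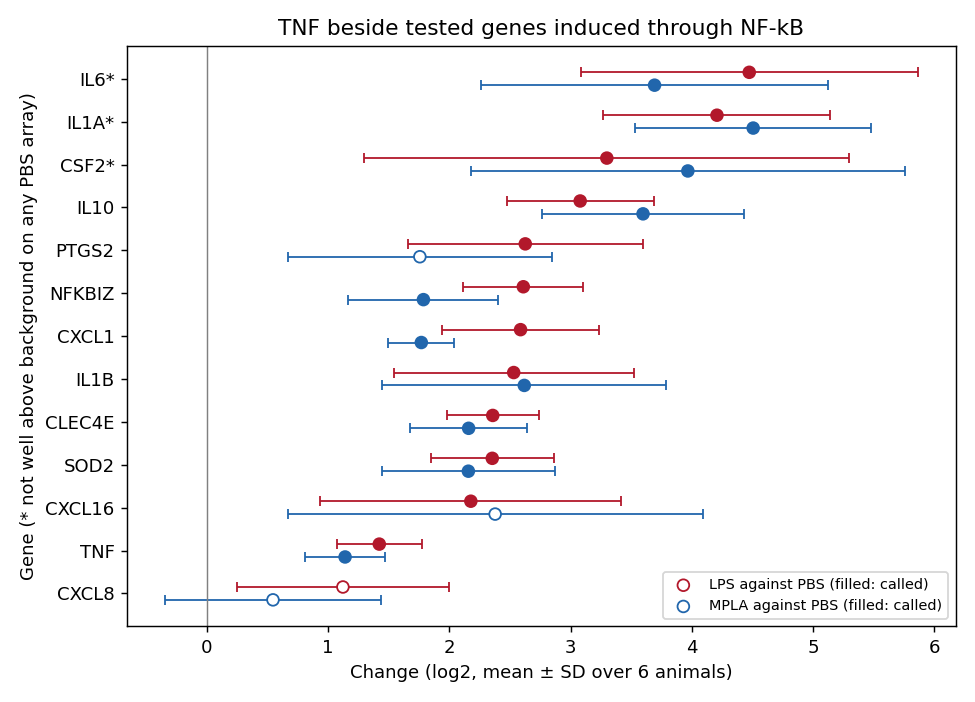
Change of TNF and of the 12 tested genes induced through NF-kB with LPS and with MPLA, as mean ± SD of the log2 change over 6 animals. Filled symbols passed the limma test (adjusted p under 0.05), and asterisks mark genes that no PBS array showed well above background, whose plotted change is not a bound. TNF at 1.42 and 1.14 lies near the low end, with short bars on this scale, while its SD with LPS grew to 1.18 after normexp.

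With the 75th percentile as the scale, the spread of the TNF change over animals was among the smaller ones on this list. Its SD was 0.348 with LPS and 0.328 with MPLA, while those of the 12 genes ran from 0.380 (CLEC4E) to 2.0 (CSF2) with LPS and from 0.271 (CXCL1) to 1.79 (CSF2) with MPLA. Over all tested probes, 26.0% had an SD of the LPS change at or below that of TNF and 19.7% had one of the MPLA change. The SD of the TNF change with LPS moved to 0.491 after quantile normalization, 0.693 with the array median, 0.825 without scaling and 1.18 after normexp. The number of the 12 genes with a smaller SD than TNF was then 2, 1, 2 and 10, against 0 on the 75th percentile scale. IL6, NFKBIZ, CXCL8 and CXCL1 were, like TNF, lower with MPLA than with LPS in all 6 animals, and the median difference of the list was -0.20 against -0.08 over all tested probes. By mean, 7 of the 12 genes were lower and 5 higher with MPLA. These directions were read with the 75th percentile as the scale. With normexp that of TNF turned, the median difference of the list was 0.27, and 7 of the 12 genes were higher with MPLA by mean.

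Of the 8 listed NF-kB targets that were named but not tested, 3 (ICAM1, SELE and IRF1) were well above background on no array. NFKBIA, which encodes the inhibitor that holds NF-kB in the cytoplasm, was well above background on 3 PBS, 5 LPS and 5 MPLA arrays. PTX3, a secreted pattern recognition protein, was on 0 PBS, 4 LPS and 5 MPLA arrays.

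The genes most like TNF across the arrays were sought by Pearson's r with the TNF probe over the 18 arrays, after subtracting each animal's mean. Among 377 other named genes, the 10 highest were LOC101104661 (0.955), IL6 (0.947), CXCL1 (0.946), CLEC4E (0.945), NFKBIZ (0.936), SERPINB2 (0.923), IL10 (0.922), PTGS2 (0.909), IL1A (0.898) and CSF2 (0.895). Of these 10, 8 are on the list described above. IL6, IL1A and CSF2 were well above background on no PBS array and passed the detection filter only through stimulated arrays. Their r and rank therefore rest on PBS values not measured above background. SERPINB2, an inhibitor of plasminogen activators, rose by 2.32 with LPS and 1.72 with MPLA (log2; limma, adjusted p = 0.00026 and 0.00308). LOC101104661 rose by 5.55 and 5.0. The points of each r share arrays, animals and scaling, and r is given as a description.

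The likeness followed the split between PBS and agonist. Of 4121 probes compared with TNF, 37 had an r above 0.8, and all 26 probes called higher with both agonists were among those with r above 0.8, the lowest at 0.805. The median r over all probes was -0.03 and the highest 0.962, in a probe without a gene name. When treatment means were subtracted as well, the r of the 10 genes with TNF ran from -0.06 (IL1A) to 0.71 (CSF2). PPARG, a nuclear receptor that represses inflammatory genes, had the lowest r of the named genes at -0.84. Its log2 level fell by 1.12 with LPS and by 1.21 with MPLA (limma, adjusted p = 0.00845 and 0.00841). Of the 10 genes, 5 were still among the 10 highest without scaling between arrays, and 6 with normexp.

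**Figure D5:**
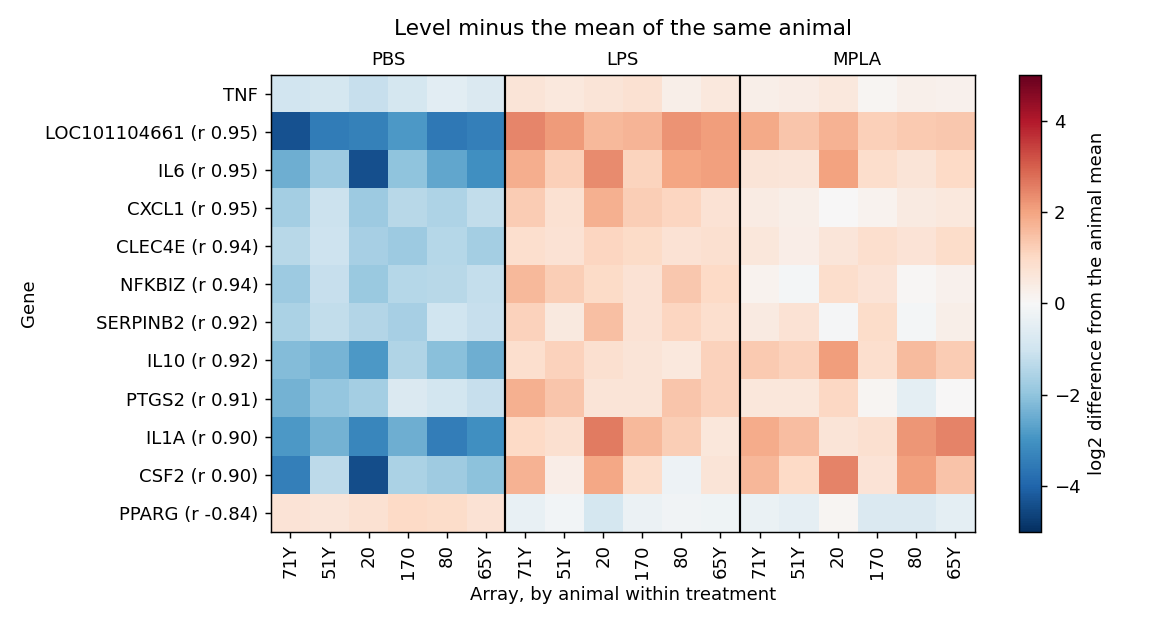
Log2 level minus the mean of the same animal on each of 18 arrays, for TNF, the 10 named genes with the highest Pearson's r to it and PPARG, which had the lowest r of the named genes. Columns are animals within PBS, LPS and MPLA, and colour gives the difference (red above, blue below the animal mean). TNF and the 10 genes are below the animal mean on all PBS arrays, and PPARG (r of -0.84) is above it. IL6, IL1A and CSF2 were well above background on no PBS array.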

How the data were processed

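RNA of sheep whole blood was hybridised by the authors to 1-colour Agilent 8x15K arrays and read with Agilent Feature Extraction 11.5.1.1, per the file headers. From the deposited files, the processed signal was taken, an intensity from which the scanner software had subtracted background, together with its flags. The authors' table holds ratios of signal to a divisor, which was 0.98 to 1 times the 75th percentile here on 16 arrays but 0.79 times on the LPS array of animal 170 and the MPLA array of animal 80. Its values follow the scanner signals on a linear scale with no centring of genes, and its column medians run from 0.07 to 0.32. Which of the amplification kits served which array is not given in the sources used here.

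Replicate spots were averaged, and the 75th percentile over the 15008 probes of an array was subtracted from its log2 signals. Each pair of treatments (12 arrays) was fitted with animal as a fixed block, using lmFit and two-sided eBayes tests of limma 3.58.1 (R 4.3.3). Tested were 4122 probes well above background on all 6 arrays of at least 1 treatment. The threshold for a call was 0.05 on p-values adjusted over those probes (Benjamini-Hochberg). Sample titles name the animals, which pairs the arrays, and all 18 same-animal correlations of deviations were at least 0.132 (mean 0.593). The exact sign-flip test used 64 patterns. In "at least" folds, the dim group was set on each array to its lowest signal well above background, or to the probe's own where that was higher. Of 2200 probes with a RefSeq accession, 1265 were named through RefSeq and 7 more through the study's table.

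Named were TNF, all tested list genes and the 10 named genes most like TNF. These rules, members and lists were chosen with earlier results of these data known. The model was tested on simulated data. Alternatives covered background, scaling, filter, block, slide, test and each animal left out; normexp (offset 50), meant for mean spot signals, had to be run on median spot signals. The spread of TNF over PBS arrays and over changes, and the calls of the NF-kB list, were recomputed under the scalings and without each animal, alternatives chosen after seeing the data. P-values of the sign-flip test and the t-test rest on the spread between 6 animals with 1 array each. Those of limma use a spread moderated toward that of all tested probes. For MPLA against LPS, limma gave TNF a standard error of 0.166 at an SD of 0.216. With LPS against PBS it was 0.168 at an SD of 0.348. The number of arrays limits the precision.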

Additional observations from a re-analysis of the deposited data

Results flagged for a closer look

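Values standing apart from the other 5 animals were sought in 78 groups of 6 by Dixon's test, and 4 were found, where chance alone flags about 1 group in 20. The log2 level of TNF with PBS was 5.26 in animal 80 and 4.86 to 4.95 in the others. The log2 change of FAS with LPS was -1.47 in animal 170 and -0.07 to 0.40 in the others, and its change with MPLA was 0.42 in animal 20 and -0.82 to -0.38 in the others. The log2 change of TIA1 with LPS was -0.88 in animal 170 and -0.13 to 0.29 in the others.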

How the results depend on the processing

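The rise of TNF kept its direction under every alternative run, from 1.02 to 1.54 on the log2 scale with LPS (20 alternatives) and from 1.03 to 1.38 with MPLA (21 alternatives). The LPS rise lost its call with normexp (1.02, adjusted p = 0.842), without scaling (1.46, 0.052), without a filter on dim probes (1.42, 0.0554) and in the methods' t-test after Benjamini-Hochberg (1.42, 0.0583). The MPLA rise lost it without scaling (1.33, 0.0992), without the filter (1.14, 0.249) and in that t-test (1.14, 0.0795). MPLA against LPS reversed to 0.27 with normexp (adjusted p = 0.76) and, at -0.28, passed in the exact sign-flip test (p = 0.031). The cause was not tested. With each animal left out in turn, the LPS rise was 1.34 to 1.54, the MPLA rise 1.03 to 1.21 and the difference -0.33 to -0.21, with no call changed. Without the replicate block, the values were 1.42 (adjusted p = 0.000667), 1.14 (0.0139) and -0.28 (0.998), and no call of TNF changed. A slide term gave 1.17 (0.022) with MPLA and -0.21 (0.482) between agonists, the same as leaving out animal 170, and gave no value for LPS, since slide is constant within animals there.

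Counts of called probes moved more. For LPS they were 37, against 2 with normexp and, in the methods' t-test, 71 at its own threshold and 10 after adjustment, with 27 to 53 when an animal was left out. For MPLA they were 41, against 24 without the filter, 92 and 13 in the t-test, and 35 to 284 with an animal left out, the highest without animal 20 (132 higher, 152 lower). For MPLA against LPS they were 2, against 0 with normexp, without the filter and without the block, 1 with detection on 4 of 6 arrays, 52 and 1 in the t-test, and 0 to 18 with an animal left out, the highest again without animal 20. Of the 12 tested NF-kB targets, 11 were called with LPS and 9 with MPLA, against 0 and 8 with normexp and 9 to 12 and 9 to 11 with an animal left out. Of the 10 genes most like TNF, 6 remained with normexp and 5 without scaling. The SD of TNF over PBS arrays, 0.142, moved to 0.594 with normexp, 0.498 with the array median, 0.281 with quantile normalization and 0.953 without scaling.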
